A study of Mus musculus with 10 samples.

Results

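The genes described here are 46 mouse interferon-stimulated genes, taken by gene symbol from a list of genes that type I and type II interferons induce. They are 46 of the 55573 annotated genes in the deposited count files, and all 46 were found in each of the 10 files. All 46 also passed the filter on low counts and are among the 12874 genes tested. The list was not built from the contrast tested here, but it was proposed with earlier results of these data known, so its counts are descriptions set beside the same counts over all genes tested.

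RNA was measured by bulk RNA-seq in hematopoietic stem and progenitor cells (HSPCs) from the bone marrow of C57BL/6 mice aged 16 weeks. The EGF group had 5 libraries from mice given epidermal growth factor under the skin, and the Saline group had 5 libraries from mice given saline by the same route. Mice of both groups carried the same prior exposure, total body radiation of 500 cGy, and were sampled 6 weeks after it, so no library comes from an unirradiated mouse. The design text names C57BL/6J mice, and the labels do not say how the HSPCs were purified, how much EGF was given, or whether each library is 1 mouse. The p-values below therefore set the group difference against variation among these libraries, part of which may be technical.

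Type I interferons signal through the receptor chains IFNAR1 and IFNAR2 and the kinases JAK1 and TYK2. The complex ISGF3, which includes STAT2 and IRF9, then binds the interferon-stimulated response element in the promoters of its target genes, while interferon gamma acts mainly at gamma-activated sites. The induced genes include sensors of viral nucleic acid, enzymes that destroy or edit viral RNA or block its translation, dynamin-like and immunity-related GTPases, and the ubiquitin-like protein ISG15 with its ligases and protease. Stem cells are known to keep part of this set on without infection, and in mouse bone marrow interferon can drive resting hematopoietic stem cells into cycle.

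The interferon-stimulated response element was searched as the letters GAAANNGAAA on both strands, in the 250 bases before each RefSeq gene start. These letters were present in 13 of the 34 genes of the list that have an entry in the promoter table (38.2%), against 936 of all 27025 genes of that table (3.46%). The gamma-activated site, searched as TTCNNNGAA, which reads the same way on both strands, was present in 7 of the 34 (20.6%), against 8.13% of all genes. Both were present in 3 genes and neither in 17, which says only that these letters are not in this window. The following stretches are shown because they carry the letters at genes whose levels are described below. They are from RefSeq on GRCm38.p6, written 5′ to 3′ on the strand of the gene, and the capitals mark the matched letters. Capitals that begin with TTTC are a match on the other strand, and longer runs of capitals are overlapping matches.
Ifit1, chr19:34640760-34640838 (+): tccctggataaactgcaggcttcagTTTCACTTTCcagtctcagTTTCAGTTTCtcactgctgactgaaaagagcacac
Ifit3, chr19:34583348-34583441 (+): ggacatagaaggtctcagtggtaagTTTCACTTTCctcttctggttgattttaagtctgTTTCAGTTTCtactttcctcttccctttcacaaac
Isg15, chr4:156200850-156200921 (-): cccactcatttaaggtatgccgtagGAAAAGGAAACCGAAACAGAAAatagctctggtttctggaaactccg
Oas3, chr5:120777700-120777759 (-): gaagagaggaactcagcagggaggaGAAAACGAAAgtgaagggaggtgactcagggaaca
Rsad2, chr12:26456538-26456597 (-): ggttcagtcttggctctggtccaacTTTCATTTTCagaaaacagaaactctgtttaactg
Stat2, chr10:128270251-128270310 (+): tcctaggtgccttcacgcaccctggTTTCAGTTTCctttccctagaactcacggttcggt
Bst2, chr8:71537562-71537627 (-): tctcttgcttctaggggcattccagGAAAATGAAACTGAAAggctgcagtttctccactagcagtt

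The first match lay 104 bases before the start of Ifit1, 156 before Ifit3, 78 before Isg15, 75 before Oas3, 120 before Rsad2, 222 before Stat2 and 130 before Bst2. Ifit1, Ifit3 and Bst2 each held 2 matches, and Isg15 held 3 that overlap. Bst2, which encodes the virus-tethering membrane protein tetherin, is shown because it holds the element and yet had a log2 fold change of -0.30 over all libraries. The value was 0.02 without EGF replicate 5, -0.64 without EGF replicate 2 and -0.23 without both.

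Total counts ran between 6805106 and 8370820 per library, and 3 counts corresponded to 0.352 to 0.426 CPM, counts of a gene scaled to a common library size. The genes with at least 1 count numbered 12731 in EGF replicate 5 and 18734 to 20046 in the other 9 libraries, so EGF replicate 5 stands apart. The main counts and many of the fold changes are given with and without it, and the others with all libraries only. All 14 stem and progenitor markers (Kit, Cd34, Flt3 and others) were tested, and their summed level was 2430 to 2930 CPM in the EGF libraries and 2050 to 2410 CPM in the Saline libraries. Neutrophil markers summed to 1750 to 2850 CPM in EGF and 1660 to 5770 CPM in Saline. B and plasma cell markers summed to 204 to 915 CPM in EGF and 693 to 1480 CPM in Saline. The largest part of the neutrophil sum was Mpo, at 1300 to 4360 CPM over the 10 libraries. That of the B and plasma cell sum was Jchain, at 97 to 1320 CPM. Ngp was 0 CPM in EGF replicate 3 and Saline replicate 1, and 130 CPM in EGF replicate 5. RNA of these lists was thus present in both groups, but sums led by 1 gene do not show how mature the cells were. In bulk RNA, a larger share of cells of a type and more RNA per cell cannot be told apart.

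Most interferon-stimulated genes had a higher mean level in the EGF group, but none passed the test over the whole table. For EGF over Saline, the log2 fold change was above 0 for 41 of the 46 genes, with a median of 0.44, whereas 6247 of all 12874 genes tested were above 0 and their median was -0.01. The 5 genes below 0 were Bst2, Ly6e, Lgals3bp, Dtx3l and Parp9. By the quasi-likelihood test of edgeR, with p adjusted by Benjamini-Hochberg and a threshold of 0.05, 0 of the 46 genes were called higher, against 1 gene of all tested (0.00777%), and 0 were called lower, against 0 of all tested (0%). At an unadjusted p under 0.05, 21 of the 46 (45.7%) were higher with EGF, against 6.14% of all genes, and 0 were lower, against 2.73%. The smallest adjusted p over the 46 genes was 0.552.

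The spread between EGF libraries was wider than that between Saline libraries, both for these genes and over all genes tested. The median SD of log2 CPM over the 46 genes was 0.518 in the 5 EGF libraries and 0.203 in the 5 Saline libraries, against 0.492 and 0.182 over all genes tested. Without EGF replicate 5 it was 0.334 in the EGF group, against 0.196 over all genes. The EGF libraries did not overlap the Saline libraries, and were the higher, for 6 genes (13%), namely Herc6, Xaf1, Cmpk2, Ifih1, Adar and Eif2ak2, where 1.62% of all genes tested did so. No gene of the list had all 5 EGF libraries below all 5 Saline libraries, where 1.65% of all genes did. With EGF replicate 5 left out, 8 of the 46 (17.4%) had no EGF library at or below the top Saline library, against 2.67% of all genes. Mx2 and Dhx58 were the additions. None had them all below, against 2.38% of all genes.

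Leaving out EGF replicate 5 changed the counts by tool. By edgeR, 0 of the 46 genes were then called higher, against 0.0305% of all genes, and 27 (58.7%) had an unadjusted p under 0.05 in that direction, against 8.38%. None had one in the lower direction, against 7.39% of all genes. DESeq2 over all 10 libraries called 1 of the 46 genes higher, Herc6 (adjusted p = 0.0406), against 0.28% of all genes, and 0 lower, against 0.155%. It gave no adjusted p for 6 of the genes, Mx1, Mx2, Ifit1, Ifit3, Isg15 and Zbp1. DESeq2 without EGF replicate 5, an alternative chosen after seeing the data, called 8 of the 46 higher (17.4%), against 1.4% of all genes. These were Herc6, Xaf1, Mx1, Mx2, Oas3, Ifih1, Dhx58 and Zbp1. Over the 23 alternatives, the adjusted p of Herc6 ran between 0.00124 and 0.833.

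**Figure D1:**
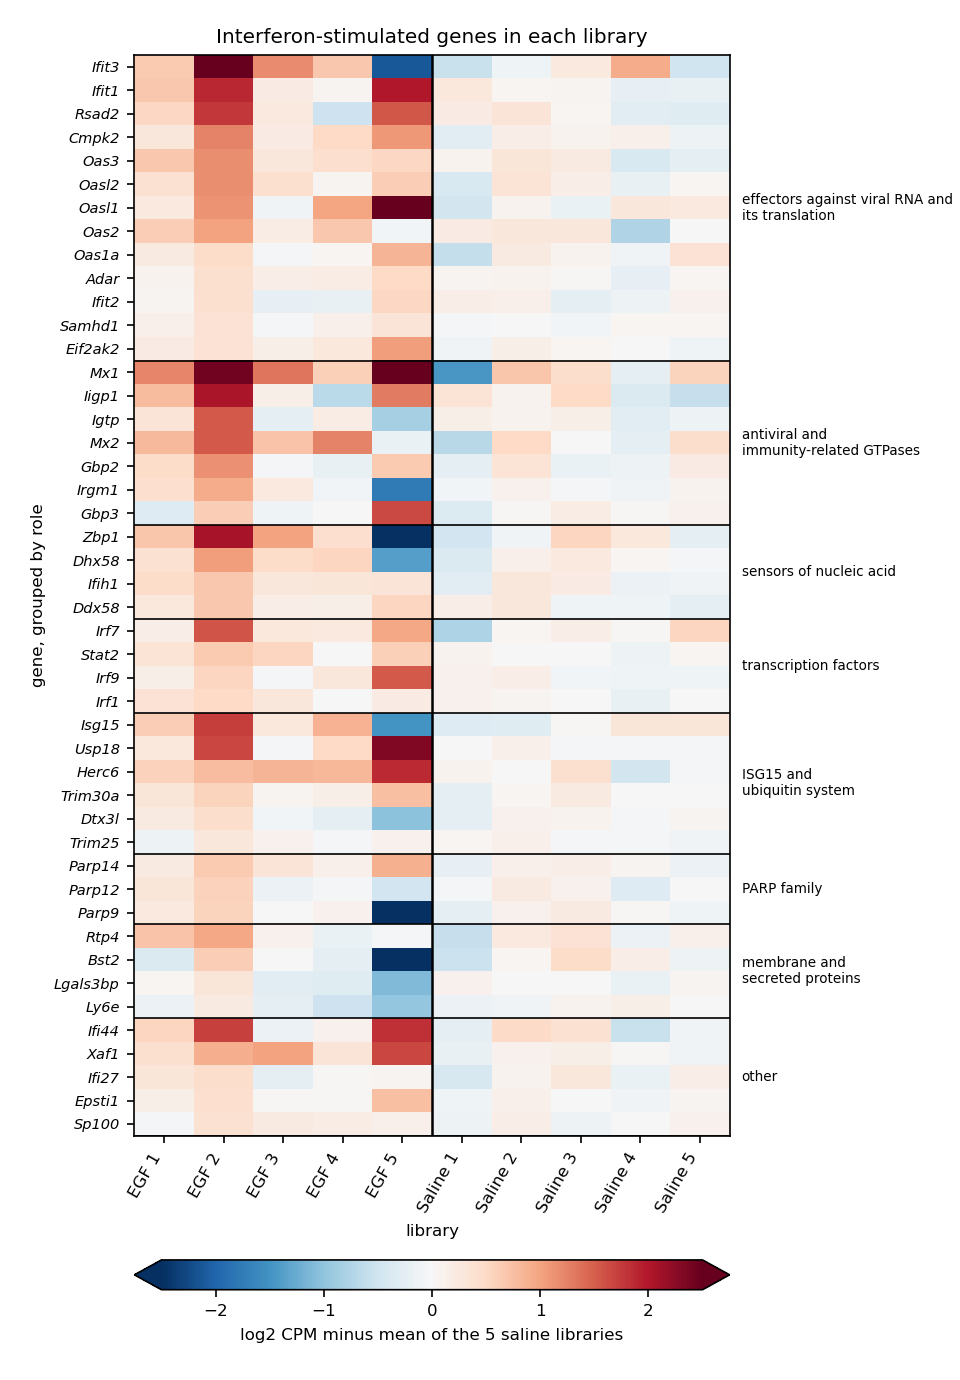
Level of each of the 46 interferon-stimulated genes in each of the 10 libraries, as log2 CPM minus the mean of the 5 Saline libraries, with genes in rows grouped by role. The column of EGF replicate 2 is above the Saline mean for all 46 genes, and the column of EGF replicate 5 holds the darkest blue cells beside some of the darkest red ones.

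The libraries of the EGF group did not share the elevation equally. In EGF replicate 2, all 46 genes were above every Saline library, where 16.3% of all genes tested were. This library was the highest of the 10 for 30 of the 46 genes (65.2%), against 6.14% of all genes, and 19 of them were at least 2-fold above the Saline mean on the scale of log2 CPM, against 1.27% of all genes. The mean difference from the Saline libraries over the 46 genes, in log2 CPM, was 0.34 in EGF replicate 1, 0.98 in replicate 2, 0.21 in replicate 3, 0.18 in replicate 4 and 0.27 in replicate 5. In the Saline libraries it was -0.18, 0.14, 0.12, -0.08 and 0.00 in replicates 1 to 5. EGF replicate 2 is thus the high one on this measure, and replicates 3 and 4 lay close to Saline replicates 2 and 3.

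In EGF replicate 1, 33 of the 46 genes were above every Saline library, against 17.1% of all genes tested. EGF replicates 3 and 4 had 17 such genes each, against 23.9% and 26.5% of all genes. EGF replicate 5 was split. It was above every Saline library for 28 of the 46 genes, against 36.3% of all genes, and below every one for 12, against 50.7%. Of the 46, 13 genes were at least 2-fold above the Saline mean in EGF replicate 5, against 14.9% of all genes, and 9 were at least 2-fold below it, against 34.8%. Among the Saline libraries, replicate 1 was the lowest of all 10 for 17 genes (37%), against 7.12% of all genes.

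As a share of all counts, the 46 genes held 0.238%, 0.308%, 0.224%, 0.219% and 0.253% in EGF replicates 1 to 5, against 0.201%, 0.227%, 0.220%, 0.196% and 0.207% in Saline replicates 1 to 5. The groups overlap on this share, since EGF replicates 3 and 4 lie below Saline replicate 2. The median log2 fold change of the 46 genes was 0.42 without EGF replicate 5, with 44 genes above 0, and 0.32 without EGF replicate 2, with 38 above 0. It was 0.17 without both, with 39 of the 46 genes still above 0.

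**Figure D2:**
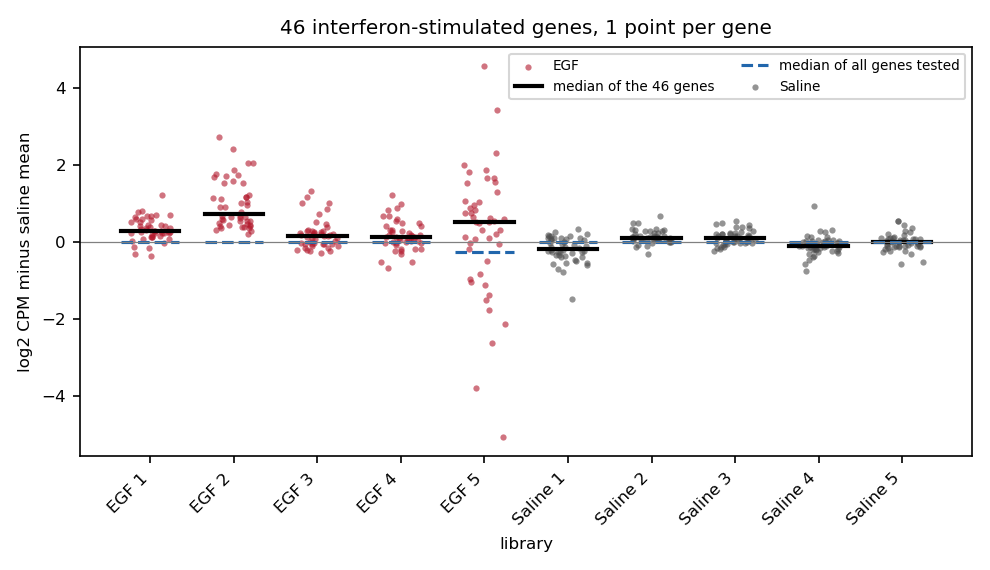
Difference of each gene from the mean of the 5 Saline libraries in log2 CPM, with 1 point per gene and library, the black line the median of the 46 genes and the dashed line the median of all genes tested. The points of EGF replicate 2 lie wholly above 0, those of EGF replicate 5 spread widest, and the medians of EGF replicates 3 and 4 are 0.16 and 0.13.

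The ligands were hardly seen in this RNA. Of 21 annotated genes for type I, II and III interferons, 18, including Ifnb1 and every numbered Ifna gene of the list, had 0 counts in every library. The other 3 were Ifnab, Ifnk and Ifng, with at most 7 counts in a library, and that count, of Ifng, was in Saline replicate 2. None was tested, and at this depth a count of 0 allows up to 3 counts, or 0.352 to 0.426 CPM. Ligand made in other cells of the marrow was not measured.

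Of 18 genes for interferon receptors and JAK-STAT signalling, 17 were tested, 8 had a log2 fold change above 0, and none was called in either direction. Socs3, a feedback inhibitor of JAK kinases downstream of many cytokines, had 18.0, 15.4, 19.2, 17.2 and 3.49 CPM in the EGF libraries and 39.5, 30.1, 27.8, 23.0 and 22.6 CPM in the Saline libraries. All EGF libraries of Socs3 lie below all Saline libraries (log2 fold change -0.96, SE 0.37, edgeR adjusted p = 0.552). Jak1, the kinase bound to IFNAR2, averaged 332 ± 13.8 CPM in EGF and 302 ± 14.2 CPM in Saline (SD, n = 5 each), also without overlap.

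Sensing genes upstream of interferon production showed no shared direction. Of 18 such genes, from Cgas and the Toll-like receptors to Irf3, 16 were tested, 9 were above 0 and none was called. The endosomal chaperone of Toll-like receptors Unc93b1 had a log2 fold change of -0.27 (SE 0.14), and the kinase Ikbke 0.57 (SE 0.31). Ikbke had 88.9 CPM in EGF replicate 5, against 25.4 to 43.9 CPM in the other EGF libraries, and its log2 fold change was 0.14 without that library. The DNA sensor Cgas had 32.4, 33.3, 23.6, 30.0 and 10.2 CPM in the EGF libraries and 33.8, 38.0, 36.2, 34.8 and 35.7 CPM in the Saline libraries. Every EGF library of Cgas is below every Saline library, with replicate 5 the lowest.

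Within the list, the 4 sensors of nucleic acid were all above 0. Ifih1 encodes MDA5, a sensor of long double-stranded RNA in the cytoplasm. It had 53.1, 61.9, 47.4, 48.1 and 48.3 CPM in the EGF libraries and 31.9, 47.2, 44.9, 35.1 and 36.6 CPM in the Saline libraries. Its groups do not overlap, but EGF replicate 3 and Saline replicate 2 nearly touch (log2 fold change 0.40, SE 0.14, edgeR adjusted p = 0.552). Ddx58 encodes RIG-I, a sensor of viral RNA ends. Dhx58 encodes their relative LGP2, and Zbp1 a sensor of Z-form nucleic acid that can trigger cell death. These 3 had log2 fold changes of 0.36, 0.39 and 0.86. Dhx58 was at 0.17 without EGF replicate 2 and 0.63 without EGF replicate 5, and Zbp1 at 0.30 and 1.17 in those fits. EGF replicate 5 had 6.00 CPM of Dhx58 and 0.14 CPM of Zbp1, below every Saline library of each. The values of EGF replicates 1 to 4 were 21, 33.5, 22.2 and 23.5 CPM for Dhx58, all above the Saline range of 12.4 to 19.0 CPM.

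The 4 transcription factors were above 0 as well, with log2 fold changes between 0.28 for Irf1 and 0.70 for Irf7, and 3 of them had an unadjusted p under 0.05. Stat2, the subunit of ISGF3 that carries its activation domain, had 28.6, 35.2, 32.5, 22.4 and 34.0 CPM in the EGF libraries and 23.9, 22.2, 22.3, 20.5 and 23.2 CPM in the Saline libraries. Only EGF replicate 4 of Stat2 lies within the Saline range, and its log2 fold change was 0.45 (SE 0.15). Irf7, the factor that amplifies interferon production, had 42.1 CPM in EGF replicate 2, and 15.6 to 27.6 CPM in the other EGF libraries, against 8.09 to 20.5 CPM in Saline, and its log2 fold change was 0.39 without that library. Irf9, the DNA-binding subunit of ISGF3, had 161 CPM in EGF replicate 5, and 54.0 to 80.8 CPM in the other EGF libraries, against 51.3 to 62.4 CPM in Saline, and its log2 fold change was 0.61 with that library and 0.24 without it.

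All 13 effectors against viral RNA and its translation had a log2 fold change above 0, between 0.14 for Ifit2 and 1.78 for Oasl1, with a median of 0.55, and 8 had an unadjusted p under 0.05. Cmpk2, a mitochondrial nucleotide kinase, had 16.6, 32.4, 15.8, 19.4 and 29.0 CPM in the EGF libraries and 11.3, 15.2, 14.6, 14.9 and 12.5 CPM in the Saline libraries. EGF replicates 2 and 5 are high, and EGF replicate 3 clears the top Saline library by a small margin (log2 fold change 0.72, SE 0.24). Oas3, one of the synthetases of oligoadenylate, which activates the RNA-cutting enzyme RNase L, had 31.4, 44.3, 23.9, 26.3 and 28.0 CPM in the EGF libraries and 20.9, 24.3, 22.7, 15 and 16.4 CPM in the Saline libraries. Its groups overlap by EGF replicate 3 alone (log2 fold change 0.63, SE 0.21).

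Ifit1, which binds RNA that lacks the methylated cap of host messengers, had 11.5, 26.8, 8.24, 7.52 and 29.3 CPM in the EGF libraries and 8.6, 7.37, 7.46, 6.16 and 6.26 CPM in the Saline libraries. Its elevation stood mainly in EGF replicates 2 and 5, and its log2 fold change was 1.22 with all libraries and 0.34 without those 2. Oasl1, reported in mice to restrain translation of Irf7, had 6.37, 11.9, 4.97, 10.8 and 59.3 CPM in the EGF libraries and 3.79, 5.69, 4.74, 6.56 and 6.39 CPM in the Saline libraries. Replicate 5 is several times every other library, and the log2 fold change of Oasl1 was 1.78 (SE 0.64) with it and 0.65 (SE 0.27) without it.

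Adar, the adenosine deaminase that edits double-stranded RNA, had 111, 139, 118, 119 and 148 CPM in the EGF libraries and 109, 110, 106, 90.3 and 107 CPM in the Saline libraries. Its groups do not overlap, but EGF replicate 1 exceeds Saline replicate 2 by less than 1 CPM (log2 fold change 0.28, SE 0.10). Eif2ak2 encodes PKR, the kinase that stops translation on sensing double-stranded RNA. It had 88.3, 98.5, 85.8, 92.0 and 158 CPM in the EGF libraries and 72.2, 84.8, 80.2, 77.1 and 71.5 CPM in the Saline libraries. EGF replicates 1 to 4 of Eif2ak2 lie in a narrow band just above Saline, and replicate 5 is far higher (log2 fold change 0.44, SE 0.16, and 0.24 without replicate 5).

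Samhd1, an enzyme that breaks down deoxynucleotides, had 146, 172, 130, 147 and 168 CPM in the EGF libraries and 130, 133, 129, 140 and 139 CPM in the Saline libraries. EGF replicate 3 is inside the Saline range, and the log2 fold change was 0.19 (SE 0.09). The other effectors were Ifit2, Ifit3, Oas1a, Oas2, Oasl2 and Rsad2, with log2 fold changes of 0.14, 1.38, 0.32, 0.49, 0.55 and 0.94. Without EGF replicate 5, Ifit2 was at 0.03 and Oas1a at 0.16, and without EGF replicate 2, Ifit3 was at 0.47 and Oasl2 at 0.36. Rsad2, which encodes the radical enzyme viperin, had 34.1 CPM in EGF replicate 2 and 29.4 CPM in EGF replicate 5, but 6.81 CPM in EGF replicate 4, below all Saline libraries (7.99 to 12.4 CPM). Ifit3 was scarce, at 7.19 CPM in EGF replicate 2 and 0 to 2.27 CPM in the other EGF libraries, against 0.506 to 1.88 CPM in Saline.

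**Figure D3:**
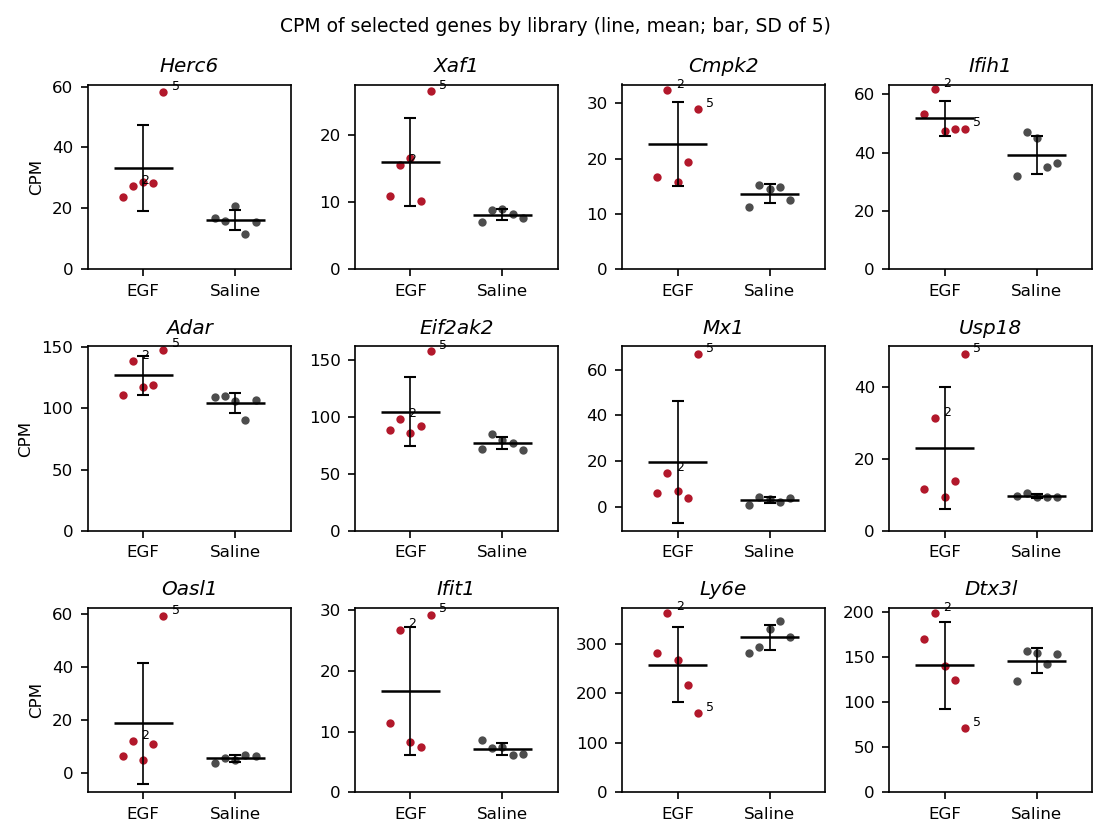
CPM of 12 genes in each library, with the mean as a line and the SD of 5 libraries as a bar, EGF on the left and Saline on the right, and EGF replicates 2 and 5 marked by number. Herc6, Xaf1, Cmpk2, Ifih1, Adar and Eif2ak2 have no overlap between groups, replicate 5 is the highest point of Mx1 at 66.7 CPM and of Oasl1 at 59.3 CPM, and it is the lowest EGF point of Ly6e at 160 CPM and of Dtx3l at 71.4 CPM.

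The 7 GTPase genes were all above 0, between 0.17 for Irgm1 and 2.75 for Mx1, with a median of 0.56, and 2 had an unadjusted p under 0.05. Without EGF replicate 2, Irgm1 was at -0.10 and Igtp at -0.08, and without EGF replicate 5 all 7 were above 0. Mx1, a gene of the dynamin-like GTPase family, had 6.25, 14.8, 6.82, 3.99 and 66.7 CPM in the EGF libraries and 0.759, 4.26, 3.55, 2.14 and 3.86 CPM in the Saline libraries. Replicate 5 alone raises the EGF mean to 19.7 ± 26.6 CPM (SD, n = 5), while the other 4 EGF libraries averaged 7.96 ± 4.70 CPM (SD, n = 4) and Saline 2.92 ± 1.45 CPM (SD, n = 5). EGF replicate 4 falls within the Saline range. The log2 fold change of Mx1 was 2.75 (SE 0.81) over all libraries, 1.44 (SE 0.44) without EGF replicate 5 and 0.96 without EGF replicates 2 and 5. Its neighbour Mx2 was not high in replicate 5, with 4.37, 7.45, 4.12, 5.99 and 2.09 CPM in the EGF libraries and 1.39, 3.49, 2.37, 2.01 and 3.33 CPM in the Saline libraries. EGF replicates 1 to 4 of Mx2 are above all Saline libraries and replicate 5 is among them.

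The other GTPase genes encode guanylate-binding proteins (Gbp2, Gbp3) and the immunity-related GTPases Igtp, Iigp1 and Irgm1, which act on vacuoles of intracellular microbes and are strongly induced by interferon gamma. In EGF replicate 2 they ranged between 48.5 CPM for Igtp and 115 CPM for Gbp3, each above every Saline library. In EGF replicate 5 they parted: Gbp3 had 235 CPM, against 58.7 to 84.6 CPM in Saline, while Irgm1 had 11.3 CPM, against 36.8 to 42.0 CPM in Saline. The log2 fold change of Gbp3 was 0.56 with that library and 0.08 without it, and without EGF replicate 2 that of Gbp2 was 0.25, against 0.47 with it, and that of Iigp1 0.51, against 0.96. Over the 7 GTPase genes, the median difference from Saline in EGF replicate 2 was 1.54 in log2 CPM. It was 1.13 for the effectors, 0.86 for the sensors and 0.66 for the ISG15 and ubiquitin system. It was 0.59 for the transcription factors, 0.58 for the PARP genes, 0.46 for the membrane and secreted proteins and 0.44 for the remaining genes. These role groups hold 3 to 13 genes each, and no test was made between them.

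Among 6 genes of the ISG15 and ubiquitin system, 5 were above 0 and 3 had an unadjusted p under 0.05. Herc6, the main ligase that attaches ISG15 in mice, had 23.9, 27.2, 28.8, 28.3 and 58.3 CPM in the EGF libraries and 16.9, 15.8, 21, 11.5 and 15.6 CPM in the Saline libraries. Every EGF library of Herc6 is above every Saline library, and replicates 1 to 4 agree closely at 27.1 ± 2.23 CPM (SD, n = 4), against 16.2 ± 3.38 CPM in Saline (SD, n = 5). Its log2 fold change was 1.04 (SE 0.26, edgeR adjusted p = 0.552) over all libraries, and it was 0.74 (SE 0.15) without EGF replicate 5 and 0.74 without EGF replicates 2 and 5. Herc6 shares 13.7% of its exon bases with another annotated gene on the same strand, so part of its reads may belong to that gene.

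Usp18, the protease that removes ISG15 and a brake on the receptor chain IFNAR2, had 11.6, 31.6, 9.37, 13.9 and 49.4 CPM in the EGF libraries and 9.74, 10.6, 9.48, 9.38 and 9.32 CPM in the Saline libraries. The Saline values are nearly level, EGF replicates 2 and 5 are high, and EGF replicate 3 is within the Saline range (log2 fold change 1.25, SE 0.43, with 0.77 without EGF replicate 5 and 0.26 without EGF replicates 2 and 5). Isg15 itself had 3.87, 8.73, 2.98, 4.70 and 0.698 CPM in the EGF libraries and 1.90, 1.94, 2.49, 3.08 and 3.06 CPM in the Saline libraries. Replicate 5, which is the highest library for Usp18 and Herc6, is the lowest for Isg15, whose log2 fold change was 0.75, and 0.30 without EGF replicate 2.

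Dtx3l, a ubiquitin ligase that pairs with PARP9, had 170, 198, 140, 124 and 71.4 CPM in the EGF libraries and 123, 157, 154, 142 and 153 CPM in the Saline libraries. EGF replicates 1 and 2 are above Saline and replicate 5 far below it. The log2 fold change of Dtx3l was -0.05 (SE 0.22), and 0.11 without EGF replicate 5 or -0.21 without EGF replicate 2. Trim25, the ligase that acts on RIG-I, and Trim30a had log2 fold changes of 0.07 and 0.38, and that of Trim25 was 0.02 without EGF replicate 2.

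The PARP genes encode transferases of ADP-ribose. Parp14 had 86.5, 115, 92.2, 80.4 and 136 CPM in the EGF libraries and 64.0, 80.6, 82.1, 76.7 and 66.0 CPM in the Saline libraries. EGF replicate 4 lies within the Saline range and the other 4 above it (log2 fold change 0.46, SE 0.15). Parp12 had a log2 fold change of 0.08, or -0.08 without EGF replicate 2. Parp9 had 58.1, 72.3, 48.7, 52.9 and 7.81 CPM in the EGF libraries and 41.3, 52.9, 57.1, 50.2 and 45.5 CPM in the Saline libraries. The low value of replicate 5 leaves its log2 fold change at -0.04, and it was 0.23 without that library or -0.24 without EGF replicate 2. Parp14, Dtx3l and Parp9 are neighbours on chromosome 16 (GRCm38, 35832874 to 35972605). In EGF replicate 5 Parp14 was thus above every Saline library, while both neighbours were below every one.

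The 4 genes for membrane and secreted proteins had a median log2 fold change of -0.24 over all libraries, below that of each other role group. Without EGF replicate 5 the median was -0.01 and 2 of the 4 genes were above 0. Without EGF replicates 2 and 5 the median was -0.20 and 1 of the 4 genes was above 0. Ly6e, a surface protein anchored by a lipid, had the highest level per length of the 46 genes, 75.4 CPM per kilobase of exon averaged over all libraries. It had 282, 363, 267, 217 and 160 CPM in the EGF libraries and 282, 293, 330, 345 and 313 CPM in the Saline libraries. EGF replicate 2 is above all Saline libraries and EGF replicates 3, 4 and 5 below all of them (log2 fold change -0.28, SE 0.18, and -0.15 without EGF replicate 5 or -0.43 without EGF replicate 2). Lgals3bp, a secreted glycoprotein that binds galectins, had 129, 155, 103, 102 and 58.0 CPM in the EGF libraries and 135, 125, 124, 112 and 132 CPM in the Saline libraries. Here too replicate 2 is the highest of all libraries and replicates 3 to 5 lie below Saline (log2 fold change -0.20, SE 0.20, and -0.04 without EGF replicate 5 or -0.36 without EGF replicate 2). Bst2 had 0.14 CPM in EGF replicate 5, 10.1 to 20.03 CPM in the other EGF libraries and 8.85 to 18.0 CPM in Saline, and Rtp4 had a log2 fold change of 0.36, or 0.17 without EGF replicate 2.

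The remaining 5 genes were above 0, with a median of 0.30. Xaf1, which antagonises the apoptosis inhibitor XIAP, had 10.9, 15.5, 16.6, 10.2 and 26.5 CPM in the EGF libraries and 7.08, 8.79, 9, 8.3 and 7.59 CPM in the Saline libraries. The groups of Xaf1 do not overlap, and its log2 fold change was 0.97 (SE 0.28) with EGF replicate 5, 0.70 (SE 0.18) without it and 0.62 without EGF replicates 2 and 5. Sp100, a component of nuclear bodies, had 101, 134, 120, 117 and 112 CPM in the EGF libraries and 93.6, 116, 94.0, 102 and 110 CPM in the Saline libraries. Its groups overlap by EGF replicates 1 and 5 (log2 fold change 0.18, SE 0.10). Ifi44, Ifi27 and Epsti1 had log2 fold changes of 0.996, 0.12 and 0.30. Without Saline replicate 1 Ifi27 was at 0.03, and without EGF replicate 5 Epsti1 was at 0.16.

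**Figure D4:**
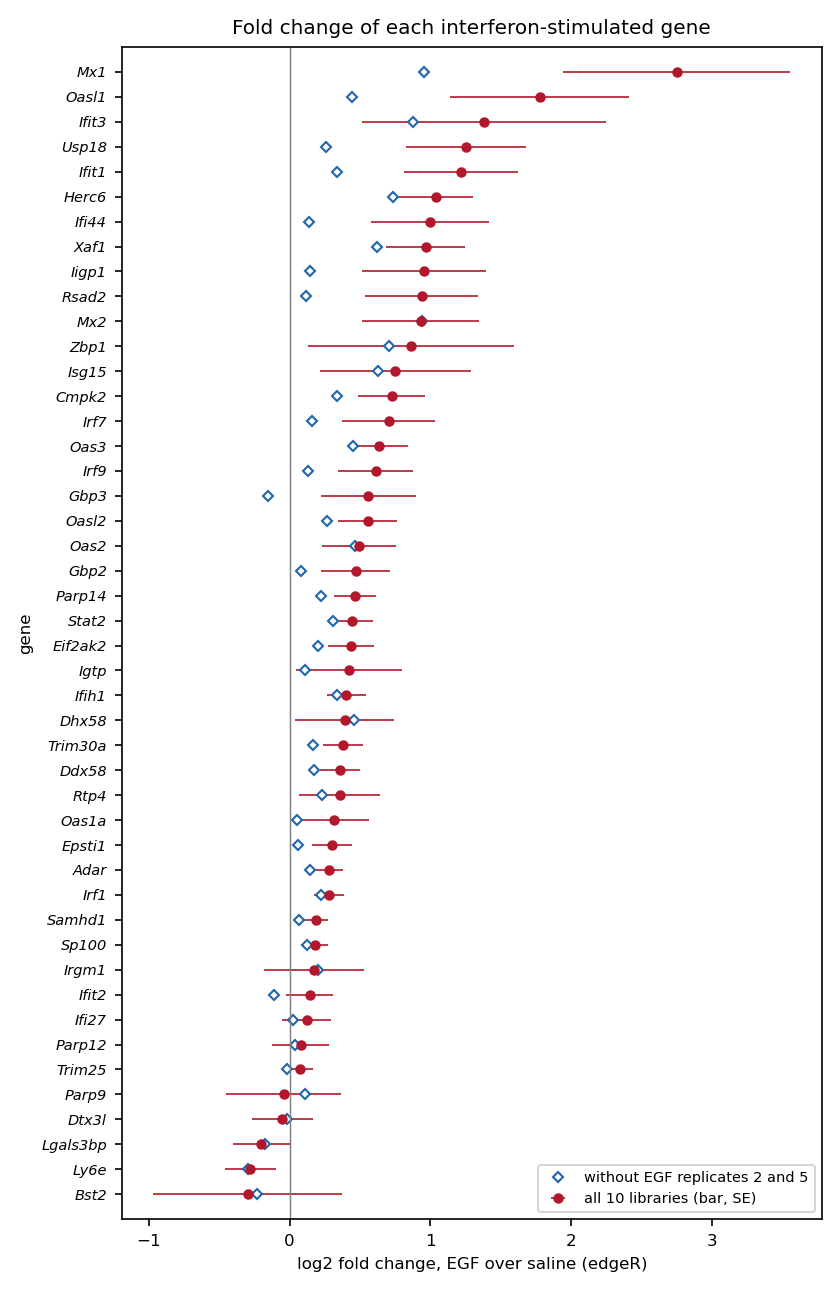
Log2 fold change of EGF over Saline for each of the 46 genes from edgeR, with filled points and SE bars for all 10 libraries and open diamonds for the fit without EGF replicates 2 and 5. The median is 0.44 over all libraries and 0.17 without those 2, and the diamonds above 0.5 are those of Mx1, Mx2, Ifit3, Herc6, Zbp1, Isg15 and Xaf1.

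Of 64 other interferon-stimulated genes outside the list, 62 matched an annotated gene and 52 were tested. Of these 52, 41 were above 0, where 6247 of all 12874 genes tested were, and their median log2 fold change was 0.25. Without EGF replicates 2 and 5 that median was 0.11, with 35 genes above 0. EGF replicate 2 was the highest of the 10 libraries for 27 of the 52. An unadjusted p under 0.05 in the higher direction was found for 10 of the 52, against 6.14% of all genes, and none was called. Pml, the scaffold of nuclear bodies, had 124, 123, 112, 123 and 124 CPM in the EGF libraries and 93.4, 103, 102, 97.9 and 97.5 CPM in the Saline libraries. All 5 EGF libraries of Pml are above all Saline libraries with little spread (log2 fold change 0.30, SE 0.07, edgeR adjusted p = 0.552). Uba7, the enzyme that activates ISG15, averaged 96.6 ± 8.26 CPM in EGF and 70.9 ± 12.7 CPM in Saline (SD, n = 5 each). The helicase gene Ddx60 averaged 44.4 ± 28.0 CPM in EGF and 20.1 ± 3.63 CPM in Saline, with 94.0 CPM in EGF replicate 5 (log2 fold change 1.14, and 0.67 without that library).

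Other genes outside the list followed its level closely. Over the 10 libraries, Pearson's r with the mean standardised level of the 46 genes was 0.95 for Tgtp1, 0.92 for Tgtp2, 0.91 for Trafd1 and 0.90 for Slfn5. It was 0.89 for Slfn8, 0.87 for Mndal and 0.86 each for Tap1, Rnf213 and Trim12c. Saline replicate 1 and EGF replicate 2 lay farthest from the median of the list, and without these 2 libraries r was 0.91 for Tgtp1 and 0.97 for Tgtp2. It was then 0.29 for Tap1 and 0.54 for Rnf213, so those 2 relations rest on the pair. These values describe 10 libraries that share their depth and EGF replicate 5, and Tgtp1 and Tgtp2 are near copies of each other.

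The EGF replicate 2 difference can be set beside the promoter letters given above. The 13 genes that hold GAAANNGAAA had a median difference from Saline in EGF replicate 2 of 1.13 in log2 CPM, with a range of 0.47 to 2.73. The 21 genes with an entry but without these letters had a median of 0.54, with a range of 0.28 to 1.71, and the 12 genes with no entry had 1.03. Over all libraries the median log2 fold changes of these 3 sets were 0.47, 0.36 and 0.48. This is a description of 1 library, and no test was made of it.

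Markers of cells that could bring interferon-stimulated RNA were read in the same libraries. Of 13 plasmacytoid dendritic cell markers 8 were tested, and the summed level of the list was 625 to 813 CPM in EGF (762 CPM in replicate 2) and 594 to 854 CPM in Saline. Most of that sum came from Bcl11a, Dntt and Tcf4, with 221 to 303, 162 to 380 and 126 to 157 CPM over the 10 libraries. Siglech, a defining marker of plasmacytoid dendritic cells, was at most 1.42 CPM in any library, and Klk1 and Klra17 had at most 3 counts everywhere. Of 14 monocyte and macrophage markers 5 were tested, with sums of 161 to 299 CPM in EGF (170 CPM in replicate 2) and 100 to 487 CPM in Saline. T and NK cell markers, 7 of 14 tested, summed to 44.6 to 108 CPM in EGF and 63.8 to 95 CPM in Saline, with EGF replicate 2 the highest of the 10 libraries. Erythroid markers, 7 of 11 tested, were 360 to 521 CPM in EGF and 338 to 418 CPM in Saline, and EGF replicate 2 was again the highest. Most of the erythroid sum was Car2, at 216 to 336 CPM over all libraries. The summed level of stem and progenitor markers was higher in each EGF library than in each Saline library, with 2490 CPM in EGF replicate 2. This holds for the sum and not for each marker, since 9 of the 14 had a log2 fold change above 0. No marker of the 8 lists was called by edgeR, and the part of these cells in the levels of the 46 genes was not tested.

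Several of the 46 genes share sequence or position with others, which bears on how their reads were assigned. Of the 50-base stretches in its transcripts, Oas1a shares 57.6% with other genes, foremost Oas1g, and Ifit3 shares 51.2%, foremost with Ifit3b, so their levels are uncertain. Herc6 shares 12.5%, Igtp 11.8%, Rtp4 11.6%, Ifit1 7.13% and Mx1 3.91%. Adar overlaps a gene on the opposite strand over 16.8% of its exon bases, Parp9 over 9.4% and Dtx3l over 8%, and the strand setting of the counting is not given in the sources used here. The 46 genes lie on 17 chromosomes, and 16 of them fall into 7 groups of neighbours within 100 kb, among them Ifit2, Ifit3 and Ifit1 on chromosome 19 (GRCm38, 34550694 to 34650009) and Mx1 and Mx2 on chromosome 16 (97447035 to 97560900). Such neighbours are not independent observations.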

How the data were processed

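The authors deposited whole-number counts of reads per gene, 1 file per library, with no normalization. Per the labels' protocols, a Qiagen RNeasy Micro kit gave the RNA, which was depleted of rRNA and made into PCR-amplified libraries by a Clontech kit. Per the submitters' processing notes, the tools were bcl2fastq 2.17 and STAR, on GRCm38 or mm10. How reads were counted, with what strand setting and annotation release, is not given in the sources used here. PCR copies cannot be told apart, and limits set by depth are for counting error alone.

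Counts were tested with edgeR 4.0.16 in R 4.3.3 (TMM scaling, filterByExpr with a minimum count of 10, quasi-likelihood F test, 5 EGF libraries over 5 Saline, Benjamini-Hochberg adjustment over all genes at 0.05). The fit was first run on simulated counts. These had no outlying library, and each change put in was larger than the median of the 46 genes. Whether smaller changes would be called was thus not tested. CPM are scaled by TMM. Log2 CPM has a prior count of 2, and SEs were taken from the F statistic. Alternatives were other scalings and filters, DESeq2 1.42.0, voom of limma 3.58.1, a replicate block, a robust fit and libraries left out. No library repeated another: chi-square over degrees of freedom was 5.94 to 124 for the pairs.

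Members and lists were chosen with earlier results of these data known. Values by library are given for 18 genes: the 12 with the smallest p, those whose groups do not overlap, the 6 with the highest mean CPM and any that DESeq2 or another tool run on all libraries called. Isg15, Mx2, Parp9, Dhx58 and others were named in addition after their values were seen. Up to 3 genes per pathway list were named by p, and the 10 most alike genes by correlation, except for an item not reported here. Of 265 list entries, 263 matched. Positions and exon overlaps are from GENCODE M21 (GRCm38), and promoters from RefSeq (GRCm38.p6), which had an entry for 34 of the 46 genes. No batch is given in the labels.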

Additional observations from a re-analysis of the deposited data

Results flagged for a closer look

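In 6 of 38 groups of 5 libraries, 1 library lay far from the other 4 by Dixon's criterion. Chance gives about 1 in 20 for independent groups. These groups share the same 10 libraries, and many of their genes were named for a small p, so the 2 rates are not comparable. EGF replicate 5 was also the highest library for 33.7% of all genes tested. EGF replicate 5 was the high library in 4 of them, with 58.3 CPM of Herc6, 66.7 CPM of Mx1, 59.3 CPM of Oasl1 and 158 CPM of Eif2ak2. Saline replicate 4 was low for Adar, at 90.3 CPM. EGF replicate 2 was high for the mean difference of the 46 genes from Saline, at 0.983 in log2 CPM.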

How the results depend on the processing

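Over all genes, edgeR called 1 gene, and 0 with library size alone, 0 with the replicate block, 0 without EGF replicates 3 and 4, 20 without EGF replicates 2 and 5 (17 higher, 3 lower), and 0 to 8 when each library was left out in turn (8 without EGF replicate 5, 4 in each direction, and 2 without EGF replicate 1). DESeq2 called 56 (36 higher, 20 lower), limma-voom with quality weights 12 (8 higher, 4 lower), and DESeq2 without EGF replicate 5, added after seeing the data, 313 (183 higher, 130 lower). Of the 46 genes DESeq2 called 1, that added setting 8, and every other alternative 0. Their median log2 fold change ran between 0.32 and 0.50 with 1 library left out, was 0.57 without EGF replicates 3 and 4 and 0.17 without EGF replicates 2 and 5. The log2 fold change of Dtx3l reversed to 0.1285 with quality weights and 0.1159 by the added setting, and ran between -0.2085 and 0.1136 with 1 library left out. The cause was not tested. Of 414 values for 18 named genes, 405 kept direction and call, 6 were past the threshold only in an alternative and 3 reversed.

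Replicate numbers did not pair the libraries (correlations of same-numbered deviations between -0.0782 and 0.0192). With the replicate block, 0 of the 46 genes were called, 40 were above 0 and the median was 0.38. Single values near or below 3 counts carry a large counting error, such as Bst2, Zbp1 and Ifit3 in EGF replicate 5. That library had 7781772 total counts, within the range of the others. It was the lowest of the 10 libraries for 47.6% of all genes tested and the highest for 33.7%. The cause of its low values was not tested.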
